A study of Homo sapiens with 21 samples.

Results

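NF-kB is a family of dimeric transcription factors. Its subunits, 3 inhibitors of its signalling and 1 subunit of the linear ubiquitin ligase were followed across the 21 arrays of a series on APE1, with members found by gene symbol from a list that was drawn up with earlier results of these data known. The list held NFKB1, NFKB2, RELA, RELB and REL (the subunits), NFKBIA and NFKBIE (inhibitors of the IkB family), TNFAIP3 (A20), BIRC3 (a ubiquitin ligase of the pathway) and RBCK1 (HOIL-1). Of these 10 genes, 9 had at least 1 probe set annotated to that gene alone, and they were read by 20 of the 54613 probe sets tested, which named 19775 genes in all. BIRC3 was not analysed here.

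Gene expression was measured on Affymetrix HG-U133 Plus 2.0 arrays, 3 per group, in A549 cells, a lung adenocarcinoma line, and in BEAS-2B cells, an immortalised bronchial epithelial line. A549 cells received control siRNA or an siRNA to APE1, and each was examined without and with trichostatin A (TSA), an inhibitor of histone deacetylases, at 100 ng/ml for 4 hours before harvest. BEAS-2B cells were transfected to overexpress WT APE1, the K6R/K7R mutant (RR), whose exchanged lysines cannot be acetylated, or ND42, which lacks the N-terminal domain. The comparisons ask which genes depend on APE1, on APE1 while TSA raises acetylation, on its acetylable lysines and on its N-terminus. The labels put the harvest of the cells at 48 hours, and the study's methods describe a later harvest for the siRNA experiments. The labels do not tell different APE1 siRNAs apart, so what that siRNA does to other transcripts and what the loss of APE1 does cannot be told apart. All 9 BEAS-2B arrays carried an APE1 plasmid, and the cells still had their own APE1 gene, so no array shows these cells without overexpression.

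In resting cells NF-kB dimers are held in the cytoplasm by IkB proteins, and signals from TNF and interleukin-1 receptors lead to IkB phosphorylation, its degradation and entry of the dimers into the nucleus, where they bind kappaB sites. NFKBIA, NFKBIE and TNFAIP3 are themselves induced by NF-kB and close negative feedback loops, and NFKB1 and NFKB2 encode precursors that also act as inhibitors until they are processed. RBCK1 joins RNF31 (HOIP) and SHARPIN in the linear ubiquitin chain assembly complex, which builds chains that recruit the IkB kinase. APE1, also called Ref-1, keeps cysteines of several transcription factors, NF-kB subunits among them, in the reduced state needed for DNA binding, apart from its work in DNA repair.

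Promoter windows of 300 bases, 250 before and 50 after a transcription start, were taken from RefSeq on GRCh38.p14 for 7 of the 9 genes (11 windows), and 6 windows of 5 genes held the kappaB consensus. Over all 35116 windows 11.3% held it, and 58.7% held the looser GGGNNNNNCC, searched on both strands. Shown are the first window of each of the 5 genes that held the kappaB consensus, in capitals, and that of RBCK1, which held none and had the largest change after APE1 siRNA. A match describes letters and not a bound site.
NFKB1, chr4:102501109-102501408, plus strand: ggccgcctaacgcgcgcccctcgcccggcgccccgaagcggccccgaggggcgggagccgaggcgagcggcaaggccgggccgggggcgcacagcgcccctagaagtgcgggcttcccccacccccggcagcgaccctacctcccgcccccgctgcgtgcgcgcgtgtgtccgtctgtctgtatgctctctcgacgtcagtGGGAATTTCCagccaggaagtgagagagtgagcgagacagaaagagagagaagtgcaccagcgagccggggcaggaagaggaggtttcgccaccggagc
NFKB2, chr10:102394328-102394627, plus strand: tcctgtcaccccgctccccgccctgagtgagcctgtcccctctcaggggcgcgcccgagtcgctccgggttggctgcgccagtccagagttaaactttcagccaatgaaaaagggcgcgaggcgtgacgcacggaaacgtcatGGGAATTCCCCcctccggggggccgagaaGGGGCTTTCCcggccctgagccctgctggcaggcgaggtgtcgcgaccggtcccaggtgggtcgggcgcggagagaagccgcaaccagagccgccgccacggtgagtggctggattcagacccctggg
REL, chr2:60881324-60881623, plus strand: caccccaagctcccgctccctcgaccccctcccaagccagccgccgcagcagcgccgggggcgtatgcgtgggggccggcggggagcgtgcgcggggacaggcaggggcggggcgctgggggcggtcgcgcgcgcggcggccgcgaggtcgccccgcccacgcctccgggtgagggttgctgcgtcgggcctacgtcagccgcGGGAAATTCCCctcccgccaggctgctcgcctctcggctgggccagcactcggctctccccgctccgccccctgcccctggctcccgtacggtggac
NFKBIA, chr14:35404700-35404999, minus strand: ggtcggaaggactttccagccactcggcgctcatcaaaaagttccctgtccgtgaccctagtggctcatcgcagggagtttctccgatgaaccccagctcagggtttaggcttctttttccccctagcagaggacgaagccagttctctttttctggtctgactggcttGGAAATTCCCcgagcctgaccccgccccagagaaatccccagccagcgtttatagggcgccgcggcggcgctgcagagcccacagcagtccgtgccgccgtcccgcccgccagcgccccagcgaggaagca
TNFAIP3, chr6:137867009-137867308, plus strand: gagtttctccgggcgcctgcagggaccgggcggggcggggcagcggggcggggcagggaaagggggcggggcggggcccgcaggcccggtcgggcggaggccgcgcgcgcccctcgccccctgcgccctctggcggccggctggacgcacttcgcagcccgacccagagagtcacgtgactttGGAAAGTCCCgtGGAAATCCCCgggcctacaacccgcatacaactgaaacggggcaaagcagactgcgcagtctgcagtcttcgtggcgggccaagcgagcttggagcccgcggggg
RBCK1, chr20:408049-408348, plus strand: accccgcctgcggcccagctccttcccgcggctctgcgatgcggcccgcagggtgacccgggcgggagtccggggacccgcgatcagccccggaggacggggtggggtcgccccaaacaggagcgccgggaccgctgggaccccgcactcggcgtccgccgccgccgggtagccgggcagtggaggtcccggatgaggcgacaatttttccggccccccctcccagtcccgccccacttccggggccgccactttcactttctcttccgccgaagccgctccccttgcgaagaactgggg

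In the NFKB2 window an overlapping pair of matches began 107 and 106 bases before the start and a further match, GGGGCTTTCC, began 78 bases before it. A later start of NFKB2 (chr10:102395455-102395754) had GGGACTTTCC 21 bases before it. NFKB1 carried GGGAATTTCC 49 bases upstream of its start. The overlapping pair of REL lay 47 and 46 bases upstream, the site of NFKBIA 81 bases upstream and those of TNFAIP3 67 and 55 bases upstream. Neither window of RELA held the consensus. RELB and NFKBIE are named only.

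Values are log2 RMA expression values as deposited, compared by limma within each cell line, and a probe set was called when its Benjamini-Hochberg adjusted p over all 54613 probe sets was below 0.05 and its change was at least 1.25-fold. Levels of different probe sets, and of both cell lines, are on scales that cannot be set against each other. The shares given for markers below therefore place probe set values within a line and do not rank the expression of genes. APEX1, which encodes APE1, read 12.20, 12.24 and 12.14 in the control siRNA arrays and 10.05, 8.43 and 10.18 in the APE1 siRNA arrays, so that it fell by 2.64 (adjusted p = 0.00222), and under TSA it fell by 2.26 (adjusted p = 0.00482). In BEAS-2B cells its mean was 10.65 with WT, 10.66 with RR and 10.48 with ND42 (SD 0.50, 0.04 and 0.09, n = 3). The A549 array of APE1 siRNA replicate 2 stood apart: it correlated at 0.876 to 0.896 with the other A549 arrays, which correlated at 0.968 or more among themselves, and 8208 probe sets (15% of all) lay more than 1 log2 unit from the mean of replicates 1 and 3. The 3' minus 5' difference of the ACTB control probe sets, a sign of RNA quality, was 2.36 after APE1 siRNA (0.43 to 6.08) and 0.23 after control siRNA (0.13 to 0.35), and that of GAPDH was 1.08 and 0.09 (exact two-sided permutation p = 0.1 for each, the smallest that 3 against 3 allows). With TSA that of ACTB was 0.97 (0.90 to 1.05) and 0.73 (0.54 to 0.87), and that of GAPDH 0.62 (0.47 to 0.71) and 0.08 (0.04 to 0.12), again with exact p = 0.1 for each. Among markers, KRT18 lay above 97.5% of probe sets in A549 and 98.8% in BEAS-2B cells, PTPRC, which marks leukocytes, above 17.3% and 13.4%, and COL1A1, a collagen of fibroblasts, above 95.2% and 99.5%. The other leukocyte markers lay higher than PTPRC: CD3E above 72.1% and 61.4%, CD14 above 55.4% and 70.8%, ITGAM above 48.2% and 55.1% and LYZ above 23.2% and 39.8%. The other fibroblast markers lay lower than COL1A1: DCN above 70% and 63.4%, PDGFRA above 57.5% and 51.8% and COL1A2 above 55.4% and 61.5%. The epithelial markers EPCAM and CDH1 lay above 19% and 29.1% in A549 cells and 46.5% and 61.8% in BEAS-2B cells.

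After APE1 siRNA in A549 cells 6 of the 20 probe sets were lower without TSA and 0 higher, where 3.64% of all probe sets were called (1.38% higher, 2.26% lower). With TSA 4 were lower and 0 higher, where 4.25% of all were called (1.36% higher, 2.89% lower). The genes were RBCK1, NFKB2, NFKBIE and TNFAIP3 without TSA and RBCK1, TNFAIP3 and REL with TSA, and the change of RBCK1 was more than 3.5-fold while the others lay between 1.28-fold and 1.54-fold. The median log2 fold change of the 20 probe sets was -0.27 without TSA and -0.29 with TSA, against 0.00 and 0.02 over all probe sets, and 17 and 16 of the 20 were below 0. Several of the 20 read the same gene, so these are not counts of genes. With 1 probe set per gene 4 of 9 genes were lower without TSA and 3 with TSA, where 3.09% and 3.37% of all genes were. Both RELA probe sets were below 0 without TSA only with APE1 siRNA replicate 2 in the fit (0.19 and 0.30 without it). All 12 A549 arrays shared a fit, so both comparisons share each probe set's spread. Without APE1 siRNA replicate 2, 7 of the 20 probe sets were lower without TSA (6.89% of all probe sets called, 3.34% lower) and 5 with TSA (9.02% called, 6.04% lower). None of the 20 was higher in either. With only the 6 arrays compared in the fit, the 6 calls without TSA became 1, that of RBCK1.

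**Figure D1:**
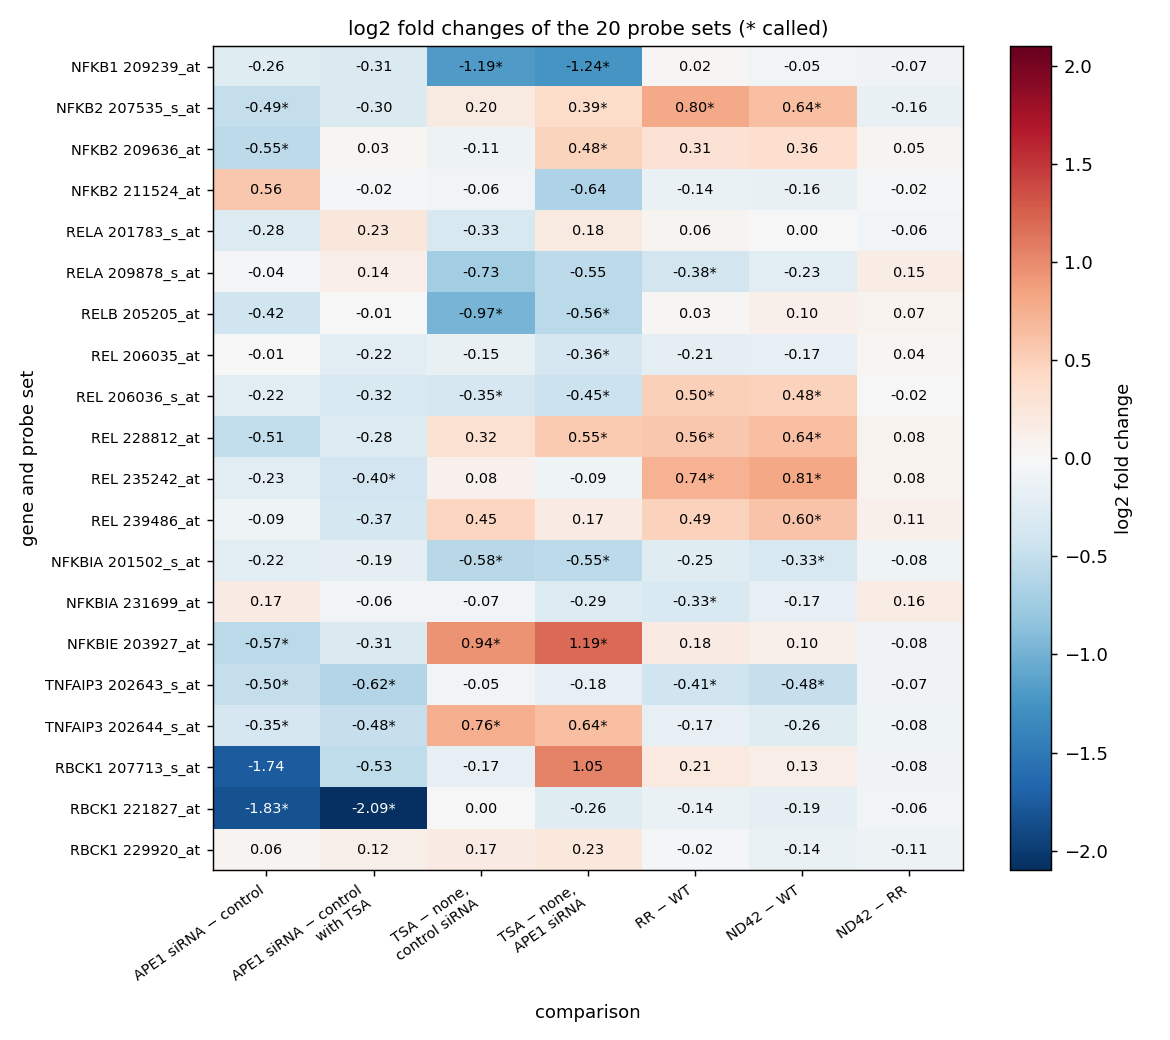
Log2 fold changes of the 20 probe sets (rows) in 7 comparisons (columns), from blue (lower) to red (higher), with an asterisk where the probe set was called. The darkest blue cells are RBCK1 at 221827_at, with -1.83 without TSA and -2.09 with TSA, and both columns against WT are red at REL (235242_at) and NFKB2 (207535_s_at).

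Among the subunits, NFKB2 (chromosome 10, 102394110 to 102402529), the precursor p100 of the noncanonical pathway, read 7.38, 7.24 and 7.38 at 207535_s_at with control siRNA against 6.89, 6.58 and 7.04 with APE1 siRNA. These groups did not overlap, and the transcript fell by 0.49 (SE 0.10, adjusted p = 0.0256). A further NFKB2 probe set, 209636_at, fell by 0.55 (SE 0.11, adjusted p = 0.0185), from 7.57, 7.32 and 7.28 to 6.75, 6.76 and 7.01, again without overlap. The third, 211524_at, read 5.36 and 5.39 on replicates 1 and 3 and 7.08 on replicate 2 after APE1 siRNA, so that its change of 0.56 (adjusted p = 0.485) came with an SE of 0.37. With TSA the changes at the first pair were -0.30 (adjusted p = 0.185) and 0.03 (adjusted p = 1), and neither was called. The calls of NFKB2 without TSA were not held by every array: that of 207535_s_at was lost without control replicate 1, 2 or 3 or APE1 siRNA replicate 1 (-0.54 to -0.47, adjusted p 0.0557 to 0.107), and that of 209636_at without control replicate 1 or 2 or APE1 siRNA replicate 1 (-0.59 to -0.46, adjusted p 0.0516 to 0.0768). Without APE1 siRNA replicate 2 both were called, at -0.37 and -0.51.

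REL (chromosome 2, 60881574 to 60931612), the c-Rel subunit, was read by 5 probe sets. At 235242_at under TSA it read 7.44, 7.62 and 7.45 with control siRNA against 7.13, 7.05 and 7.12 with APE1 siRNA, and fell by 0.40 (SE 0.08, adjusted p = 0.0228) with no overlap of the groups. That call was lost when any 1 of these 6 arrays was left out (-0.44 to -0.34, adjusted p 0.0507 to 0.0974). Its other 4 probe sets changed by -0.37 to -0.22 with TSA, and without TSA the 5 changed by -0.51 to -0.01, none called. NFKB1 (chromosome 4, 102501359 to 102617302), the precursor p105 of p50, differed by -0.26 (SE 0.16, adjusted p = 0.482) in untreated cells, and under TSA the difference was -0.31 (adjusted p = 0.483). RELA (chromosome 11, 65653601 to 65663857), the p65 subunit that carries a transactivation domain, showed how much replicate 2 weighed: at 201783_s_at it read 9.52, 9.42 and 9.46 with control siRNA against 9.60, 8.24 and 9.71 with APE1 siRNA, a change of -0.28 (adjusted p = 0.642) that was 0.19 (adjusted p = 0.107) without that array. RELB (chromosome 19, 45001464 to 45038192), the partner of p52 in the noncanonical pathway, read 8.01, 7.83 and 7.93 against 7.70, 7.17 and 7.63, a difference of -0.42 (SE 0.14, adjusted p = 0.186) that did not pass, and with TSA it was -0.01 (adjusted p = 1).

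Of the inhibitors, NFKBIE (chromosome 6, 44258166 to 44265551), IkB epsilon, which holds RELA and REL dimers, read 7.84, 7.75 and 7.77 with control siRNA against 7.44, 6.95 and 7.26 with APE1 siRNA, and fell by 0.57 (SE 0.11, adjusted p = 0.0159). With TSA the arrays read 8.70, 8.74 and 8.72 against 8.35, 8.37 and 8.52, and the difference of -0.31 (SE 0.11, adjusted p = 0.185) was not called. Groups did not overlap in either setting, and the call without TSA was lost when control replicate 1, 2 or 3 was left out (-0.58 to -0.54, adjusted p 0.0562 to 0.0732). NFKBIA (chromosome 14, 35401513 to 35404749), IkB alpha, the inhibitor with the fastest turnover, read 9.51, 9.51 and 9.56 against 9.36, 9.20 and 9.36 at 201502_s_at. Its difference of -0.22 (SE 0.08, adjusted p = 0.216) and that with TSA, -0.19 (adjusted p = 0.304), were not called. At 231699_at the changes were 0.17 (adjusted p = 0.671) without TSA and -0.06 with TSA, neither called.

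TNFAIP3 (chromosome 6, 137866349 to 137883312) encodes A20, an enzyme that edits ubiquitin chains and ends the response to TNF. It was the only member other than RBCK1 called lower both without and with TSA, at both of its probe sets. At 202643_s_at the arrays read 7.23, 7.26 and 7.32 with control siRNA against 6.74, 6.68 and 6.90 with APE1 siRNA, and the transcript fell by 0.50 (SE 0.12, adjusted p = 0.0456). At 202644_s_at they read 8.33, 8.30 and 8.37 against 7.90, 7.97 and 8.09, and the transcript fell by 0.35 (SE 0.08, adjusted p = 0.0387). The groups did not overlap at either probe set. With TSA the values were 8.99, 9.23 and 9.07 against 8.71, 8.55 and 8.60 at 202644_s_at, a fall of 0.48 (SE 0.08, adjusted p = 0.00688), and 7.26, 7.34 and 7.06 against 6.77, 6.68 and 6.34 at 202643_s_at, a fall of 0.62 (SE 0.12, adjusted p = 0.0135). The calls without TSA were the least stable: that of 202643_s_at was lost in 8 of 12 fits that left out 1 array (without control replicate 1, 2 or 3, APE1 siRNA replicate 1 or 3, TSA control replicate 1 or 2 or TSA APE1 siRNA replicate 2; -0.56 to -0.47, adjusted p 0.0531 to 0.164) and that of 202644_s_at in 7 (without control replicate 1, 2 or 3, APE1 siRNA replicate 1, TSA control replicate 3 or TSA APE1 siRNA replicate 2 or 3; -0.37 to -0.31, adjusted p 0.0551 to 0.147). Both were also lost after a further quantile normalization (-0.48 and -0.14, adjusted p = 0.0653 and 0.638). With TSA the call of 202643_s_at was lost without TSA control replicate 1 or 2 (-0.60 to -0.56, adjusted p 0.0586 to 0.0661), and that of 202644_s_at was kept in all 12 fits but lost after a further quantile normalization (adjusted p = 0.318).

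**Figure D2:**
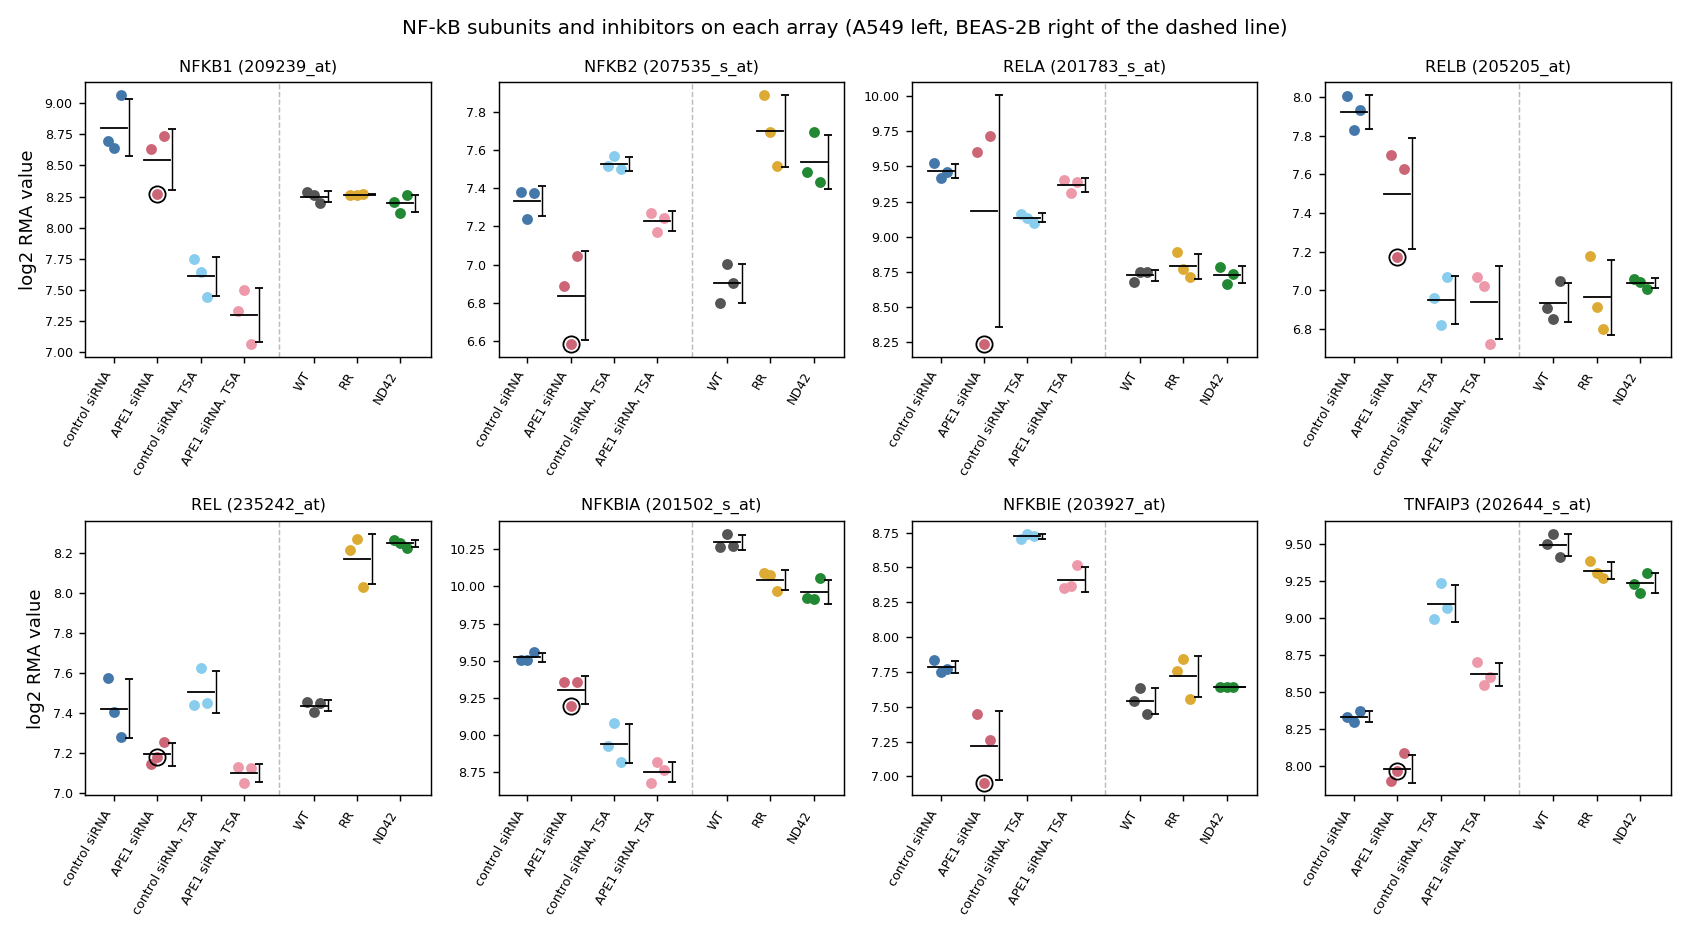
Log2 RMA value (vertical axis, its range set for each panel) of 8 genes on each of the 21 arrays, by group, with a line for the mean and a bar for the SD over 3 arrays, and a ring around A549 APE1 siRNA replicate 2. For NFKBIE and TNFAIP3 the 4 A549 groups are separate, with TSA arrays above untreated and APE1 siRNA arrays below control siRNA, while REL at 235242_at lies above 8.0 on the RR and ND42 arrays and at 7.41 to 7.45 on the WT arrays.

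RBCK1 (chromosome 20, 408299 to 432139) had the largest change of the 9 genes after APE1 siRNA, at 1 of its 3 probe sets. At 221827_at the arrays read 11.32, 11.28 and 11.32 with control siRNA against 9.57, 9.40 and 9.44 with APE1 siRNA. The groups did not overlap, and RBCK1 fell by 1.83 (SE 0.08, adjusted p = 3.72e-06), or 3.57-fold. With TSA the values were 11.22, 11.29 and 11.40 against 9.22, 9.35 and 9.07, and RBCK1 fell by 2.09 (SE 0.08, adjusted p = 1.47e-06), or 4.26-fold. Both calls were kept in all 12 fits without 1 array and in all 10 other settings tried.

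The other 2 probe sets of RBCK1 did not give that size. At 207713_s_at the arrays read 8.84, 8.74 and 8.91 with control siRNA against 8.26, 4.69 and 8.30 with APE1 siRNA, so that the change of -1.74 (SE 0.76, adjusted p = 0.332) was not called and rested on replicate 2. Without that array the transcript fell by 0.55 (SE 0.07, adjusted p = 0.00024). Under TSA the values were 8.61, 8.71 and 8.66 against 8.08, 8.10 and 8.21. With APE1 siRNA replicate 2 in the fit, this change of -0.53 (SE 0.76, adjusted p = 0.954) was not called. It was called only when that array was left out of the fit (-0.53, SE 0.06, adjusted p = 7.89e-05). At 229920_at the arrays read 7.48, 7.60 and 7.59 against 7.65, 7.51 and 7.70, a difference of 0.06 (95% interval -0.10 to 0.22, adjusted p = 0.654). With TSA its difference was 0.12 (-0.04 to 0.27, adjusted p = 0.596). Which RBCK1 transcripts each probe set reads was not tested, nor was the part of RNA quality in these results.

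**Figure D3:**
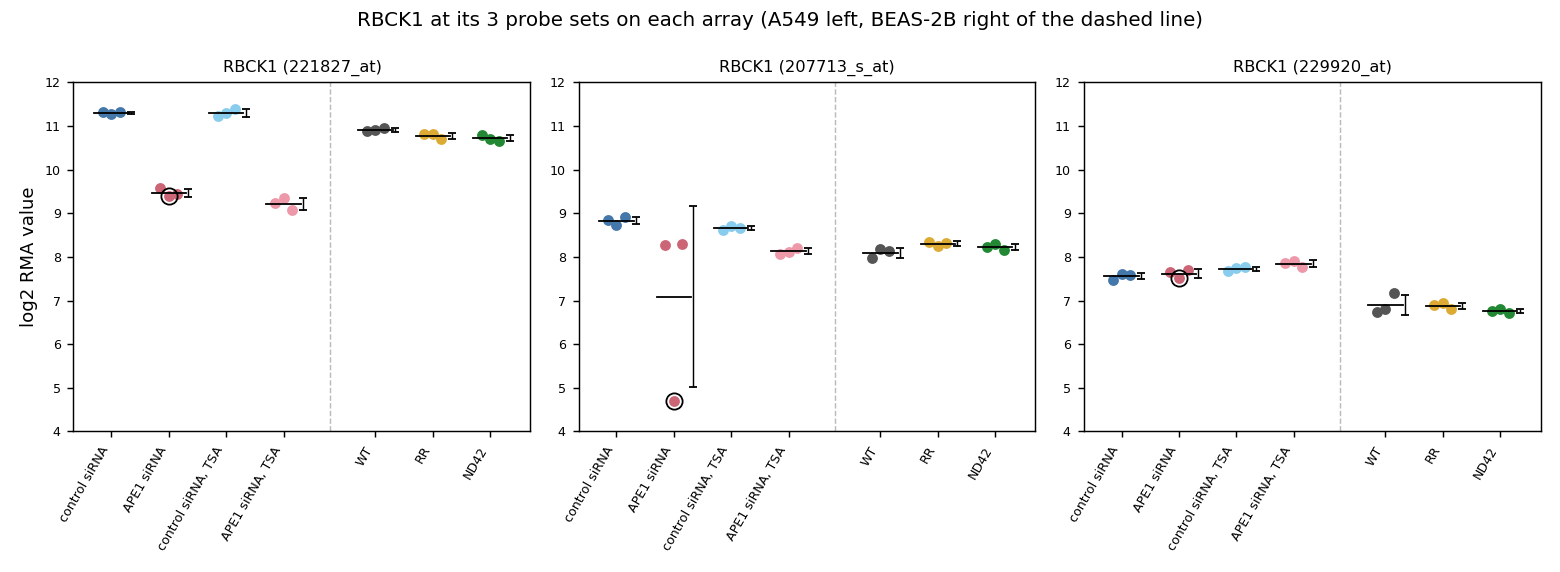
Log2 RMA value (vertical axis, the same range in each panel) of the 3 RBCK1 probe sets on each array, with the mean, the SD over 3 arrays and a ring around A549 APE1 siRNA replicate 2. At 221827_at both APE1 siRNA groups lie below 9.6 and both control siRNA groups above 11.2, whereas 229920_at shows no such gap and 207713_s_at has 1 array at 4.69.

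Partners of RBCK1 and other genes of the pathway were described from lists, with 1 probe set per gene. RNF31 changed by 0.09 (adjusted p = 0.657) without TSA and 0.15 (adjusted p = 0.67) with TSA, while SHARPIN changed by -0.22 (adjusted p = 0.194) without TSA and fell by 0.34 (SE 0.08, adjusted p = 0.0289) with TSA. Of 11 genes of the ubiquitin machinery measured, 0 were called without TSA and SHARPIN alone with TSA at that probe set. At any probe set of a gene 2 were lower without TSA and 4 with TSA, and 0 higher in either. No share over all genes is given for that count. Of 12 kinases and adaptors around the IkB kinase 2 were lower without TSA and 2 with TSA, in both settings MAP3K14 (NIK, which drives processing of p100), at -0.60 and -0.51, and TAB3, at -0.47 and -0.50. Of 13 receptors and adaptors 2 were higher in both settings, namely IL1RAP, the accessory chain of the interleukin-1 receptor, at 0.93 and 1.45, and the kinase IRAK2, at 0.62 and 0.82, and IL1R1 was lower with TSA, at -0.46. Over all genes 4.94% were called without TSA (1.85% higher, 3.09% lower) and 5.28% with TSA (1.91% higher, 3.37% lower).

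Target genes of NF-kB were called after APE1 siRNA in both directions without TSA and only lower with TSA. Of 24 measured, CXCL8 and IL1A were higher, by 0.70 and 0.48, and CXCL2 was lower, by -0.53, without TSA. IL6 had the largest change without TSA, -2.06 (SE 0.72, adjusted p = 0.199), and was not called. With TSA CXCL2, LIF and CCL20 were lower, at -1.79, -0.89 and -0.33, and 0 were higher. The largest change with TSA, -2.27, was that of a further target and was not called. The median change of the 24 targets was -0.18 without TSA and 0.02 with TSA, against -0.03 and 0.02 over all genes. Without APE1 siRNA replicate 2, 5 were higher and 3 lower without TSA, where 6.89% of all probe sets were called (3.55% higher, 3.34% lower). With TSA 0 were then higher and 8 lower, where 9.02% of all probe sets were called (2.98% higher, 6.04% lower).

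TSA changed the NF-kB genes in both directions. In cells with control siRNA NFKB1, RELB, REL and NFKBIA were lower and NFKBIE and TNFAIP3 higher, 2 probe sets higher and 4 lower of 20, where 17.7% of all probe sets were called (9.33% higher, 8.4% lower). In cells with APE1 siRNA 5 were higher and 5 lower, where 21.5% were called (11.3% higher, 10.2% lower). Without APE1 siRNA replicate 2 the counts were 3 higher and 6 lower in both, where 25.6% and 28.1% of all were called. The medians were -0.06 and -0.14 against -0.04 and -0.04 over all probe sets. The 14 bioB, bioC and bioD control probe sets, which read RNA added at hybridization, differed by -1.79 to 1.20 between TSA and untreated arrays after control siRNA and by -1.81 to 2.17 after APE1 siRNA, and between APE1 siRNA and control siRNA they differed by -1.33 to 0.34 without TSA and by -0.06 to 0.07 with TSA. The ACTB difference between 3' and 5' probe sets was 0.73 with TSA and 0.23 without it after control siRNA. The part of array processing and RNA quality in these results was not tested.

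NFKB1 read 8.70, 8.64 and 9.07 without TSA and 7.75, 7.65 and 7.44 with TSA after control siRNA. It fell by 1.19 (SE 0.16, adjusted p = 0.000455), or 2.28-fold. After APE1 siRNA it fell by 1.24 (SE 0.16, adjusted p = 0.000298), from 8.63, 8.27 and 8.73 to 7.33, 7.50 and 7.07. No TSA array reached an untreated array in either setting, and both calls were kept in all 12 fits without 1 array. RELB fell by 0.97 (SE 0.14, adjusted p = 0.000779) after control siRNA, to 6.96, 6.82 and 7.07, and by 0.56 (SE 0.14, adjusted p = 0.0168) after APE1 siRNA, to 7.07, 7.02 and 6.72. The second of these calls was lost without APE1 siRNA replicate 1 or 3 or TSA APE1 siRNA replicate 3 (-0.50 to -0.45, adjusted p 0.0518 to 0.0675).

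RELA at 209878_s_at read 7.97, 7.65 and 7.62 without TSA and 7.10, 6.98 and 6.96 with TSA after control siRNA. The groups did not overlap, yet the change of -0.73 (SE 0.25, adjusted p = 0.0614) was not called in the fit over all 12 arrays, which includes APE1 siRNA replicate 2. Without that array RELA fell by 0.73 (SE 0.11, adjusted p = 0.000143) at this probe set and by 0.33 (SE 0.06, adjusted p = 0.000562) at 201783_s_at. In the fit over all 12 arrays the change of 201783_s_at after control siRNA was -0.33 (adjusted p = 0.539) and not called. After APE1 siRNA that fit gave -0.55 (adjusted p = 0.13) at 209878_s_at, where the groups overlapped. At 201783_s_at it gave 0.18 (adjusted p = 0.681), and neither was called. Without replicate 2, 209878_s_at fell by 0.89 (SE 0.12, adjusted p = 7.09e-05) after APE1 siRNA. The change at 201783_s_at was then -0.29, under 1.25-fold.

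NFKB2 was not called after control siRNA, with 0.20 (adjusted p = 0.24) and -0.11 (adjusted p = 0.575). After APE1 siRNA it rose by 0.39 (SE 0.10, adjusted p = 0.0197) at 207535_s_at, to 7.27, 7.17 and 7.24, and by 0.48 (SE 0.11, adjusted p = 0.0094) at 209636_at, to 7.28, 7.17 and 7.49. The first call was lost without APE1 siRNA replicate 2 (0.26, below 1.25-fold) or TSA APE1 siRNA replicate 1 or 3 (adjusted p up to 0.0587). For 209636_at the difference between both TSA effects, the interaction of siRNA and TSA, was 0.59 (SE 0.15, unadjusted p = 0.00348, adjusted p = 0.346).

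The probe sets of REL disagreed under TSA. At 206036_s_at REL fell by 0.35 (SE 0.10, adjusted p = 0.0268) after control siRNA, from 5.24, 5.49 and 5.42 to 5.25, 4.90 and 4.95, where the groups overlapped, and by 0.45 (SE 0.10, adjusted p = 0.00667) after APE1 siRNA, from 5.22, 5.14 and 5.13 to 4.72, 4.74 and 4.67, where they did not. At 228812_at it rose by 0.55 (SE 0.18, adjusted p = 0.0451) after APE1 siRNA, where replicate 2 read 4.90 against 5.69 and 5.67 on the other untreated arrays, and without that array the change was 0.29, below 1.25-fold. That call was lost in 10 of 12 fits without 1 array, kept only without APE1 siRNA replicate 1 or 3 (adjusted p 0.0068 to 0.124 in the 10). At 206035_at it fell by 0.36 (SE 0.11, adjusted p = 0.0343) after APE1 siRNA, a call lost without control replicate 2, APE1 siRNA replicate 1 or 3 or TSA APE1 siRNA replicate 1 or 3 (-0.38 to -0.27, adjusted p 0.0518 to 0.123). The call of 206036_s_at after control siRNA was lost without control replicate 2 or 3 or TSA control replicate 2 or 3 (-0.33 to -0.29, adjusted p 0.0872 to 0.108). At 235242_at REL changed by 0.08 (adjusted p = 0.588) and -0.09 (adjusted p = 0.44).

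The 3 inhibitors split under TSA. NFKBIA at 201502_s_at fell by 0.58 (SE 0.08, adjusted p = 0.000454) after control siRNA, to 8.93, 9.08 and 8.82, and by 0.55 (SE 0.08, adjusted p = 0.000568) after APE1 siRNA, to 8.68, 8.82 and 8.76. At 231699_at NFKBIA changed by -0.07 (adjusted p = 0.894) and -0.29 (adjusted p = 0.292), neither called. NFKBIE rose by 0.94 and 1.19 (SE 0.11 and 0.11, adjusted p = 0.000146 and 2.43e-05). The 4 calls of NFKBIA and NFKBIE were kept in all 12 fits without 1 array, and in each of them no treated array overlapped an untreated one. That of NFKBIA after control siRNA was lost after a further quantile normalization (adjusted p = 0.0651). TNFAIP3 rose by 0.76 and 0.64 (SE 0.08 and 0.08, adjusted p = 7.89e-05 and 0.000227) at 202644_s_at, and at 202643_s_at it changed by -0.05 (adjusted p = 0.844) and -0.18 (adjusted p = 0.289), so its 2 probe sets disagreed. The call of 202644_s_at after APE1 siRNA was lost after a further quantile normalization (adjusted p = 0.0761). RBCK1 at 221827_at was level with TSA after control siRNA, with a change of 0.00 (95% interval -0.19 to 0.19), and read -0.26 (SE 0.08, adjusted p = 0.0502) after APE1 siRNA.

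Other inhibitors measured also went both ways: of 9, 4 were higher and 2 lower in each siRNA group. NFKBIZ, a nuclear IkB protein, rose by 1.24 and 1.81, and CYLD, a deubiquitinase, by 0.94 and 0.87, while TNIP3 fell by 0.54 and 0.95. IKBKB, the catalytic kinase that marks IkB alpha, fell by 0.74 and 0.65, and LTBR, a receptor of the noncanonical pathway, by 1.07 and 0.88. Of the 24 targets 7 were higher and 4 lower in control siRNA cells, and 6 higher and 5 lower in APE1 siRNA cells, where 20.9% (11.9% higher, 8.94% lower) and 25.1% (15.3% and 9.77%) of all genes were called. CCL20 rose by 2.84 and 2.70, BCL2A1 by 1.44 and 1.52 and CXCL8 by 1.83 and 1.16. CCL2 fell by 1.59 and 1.48. The interaction of siRNA and TSA was called at 0 of the 20 member probe sets, with 1 at an unadjusted p under 0.05, where 0.0641% of all probe sets were called (0.0146% higher, 0.0494% lower). Among targets it was called lower at 3, CXCL2 (-1.25), LIF (-1.09) and CXCL8 (-0.68), where 0.121% of all genes were called (0.0202% higher, 0.101% lower). At the members it was also called at 0 of the 20 without APE1 siRNA replicate 2, where 1.39% of all were called (0.276% higher, 1.11% lower). These comparisons share arrays, so the values of one are not independent of another's.

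In BEAS-2B cells REL, at several probe sets, and NFKB2, at 207535_s_at, were higher with both APE1 mutants than with WT APE1. TNFAIP3 was lower with both at 202643_s_at. Neither NFKB2 nor TNFAIP3 was called at a further probe set. RR raised 4 probe sets and lowered 3 of 20, where 21.6% of all probe sets were called (10.7% higher, 10.9% lower), and ND42 raised 5 and lowered 2, where 13.2% were called (7.06% higher, 6.12% lower). The 20 probe sets are not separate genes, and REL supplied 3 of the 7 calls with RR and 4 of the 7 with ND42. With 1 probe set per gene 2 of 9 genes were called with RR, where 26% of all genes were, and 3 of 9 with ND42, where 17.8% were. The hybridization control probe sets differed by 0.18 to 0.38 with RR and 0.12 to 0.32 with ND42. The medians of the 20 probe sets were 0.02 and -0.02, against -0.02 and -0.01 over all. Both comparisons rest on the same 3 WT arrays, so they are given side by side and not as independent evidence.

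REL gave the steadiest difference. At 235242_at it read 7.45, 7.41 and 7.45 with WT, 8.22, 8.27 and 8.03 with RR and 8.27, 8.25 and 8.23 with ND42. Every mutant array lay above every WT array, and REL rose by 0.74 with RR (SE 0.06, adjusted p = 3.39e-05) and by 0.81 with ND42 (SE 0.06, adjusted p = 2.39e-05), or 1.67-fold and 1.76-fold. At 228812_at it read 6.86, 6.87 and 6.98 with WT, 7.58, 7.44 and 7.37 with RR and 7.54, 7.42 and 7.65 with ND42, and rose by 0.56 and 0.64 (SE 0.07 and 0.07, adjusted p = 0.000401 and 0.000238). At 206036_s_at it rose by 0.50 and 0.48 (SE 0.09 and 0.09, adjusted p = 0.00266 and 0.00433), again without overlap. These 6 calls were kept in all 9 fits without 1 BEAS-2B array and in all 9 other settings. At 239486_at the changes were 0.49 (adjusted p = 0.0643) and 0.60 (SE 0.19, adjusted p = 0.0456), and the latter call was lost in 7 of 9 fits without 1 array (without any WT or ND42 array or RR replicate 2; 0.48 to 0.71, adjusted p 0.0525 to 0.158). The dimmest REL probe set, 206035_at, went the other way, at -0.21 (adjusted p = 0.148) and -0.17 (adjusted p = 0.326), and was not called.

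NFKB2 at 207535_s_at read 6.80, 7.002 and 6.90 with WT, 7.89, 7.70 and 7.52 with RR and 7.48, 7.70 and 7.43 with ND42. No mutant array overlapped the WT arrays, and NFKB2 rose by 0.80 and 0.64 (SE 0.10 and 0.10, adjusted p = 0.000322 and 0.00162), calls kept in all 9 fits and all 9 other settings. At 209636_at the changes were 0.31 (adjusted p = 0.0772) and 0.36 (adjusted p = 0.0677), and at 211524_at -0.14 (adjusted p = 0.127) and -0.16 (adjusted p = 0.138). NFKB1 read 8.28, 8.26 and 8.20 with WT, 8.26, 8.27 and 8.27 with RR and 8.21, 8.12 and 8.26 with ND42, differences of 0.02 (95% interval -0.10 to 0.13) and -0.05 (-0.17 to 0.07). RELB changed by 0.03 (-0.18 to 0.23) and 0.10 (-0.10 to 0.30).

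For RELA the 2 probe sets parted. At 209878_s_at it read 7.25, 7.24 and 7.31 with WT, 6.88, 6.95 and 6.82 with RR and 7.12, 7.04 and 6.96 with ND42. It fell by 0.38 (SE 0.06, adjusted p = 0.000972) with RR, and with ND42 the difference of -0.23 (SE 0.06, adjusted p = 0.0215) was under 1.25-fold. The RR call was kept in all 9 fits without 1 array but was lost with all 21 arrays in the fit and with each array centred on its median. At 201783_s_at, by contrast, the changes were 0.06 (-0.07 to 0.20) and 0.00 (-0.13 to 0.14).

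Of the feedback inhibitors NFKBIA was called lower with each mutant, at different probe sets, and NFKBIE was not called in either direction. NFKBIA at 201502_s_at read 10.27, 10.36 and 10.27 with WT, 10.09, 10.08 and 9.97 with RR and 9.92, 9.91 and 10.06 with ND42. The WT arrays were the highest, NFKBIA fell by 0.33 (SE 0.06, adjusted p = 0.00309) with ND42, and with RR the difference of -0.25 (SE 0.06, adjusted p = 0.01) was under 1.25-fold. Without WT replicate 2 or ND42 replicate 1 or 2 the ND42 change was -0.31, also under that fold, and the call was lost with arrays centred on their median. At 231699_at, a dim probe set, NFKBIA fell by 0.33 (SE 0.07, adjusted p = 0.00608) with RR, a call lost without WT replicate 1 or 3 or RR replicate 1 (-0.32 to -0.27, under 1.25-fold), and changed by -0.17 (adjusted p = 0.126) with ND42. NFKBIE changed by 0.18 and 0.10 (SE 0.08 and 0.08, adjusted p = 0.0989 and 0.441). It read 7.54, 7.63 and 7.45 with WT and 7.76, 7.84 and 7.56 with RR, while the 3 ND42 arrays held the identical value 7.64. On those arrays 1075 probe sets (1.97%) each held 1 value 3 times, against 294 with WT and 218 with RR, so an SD of 0 here is no measure of spread.

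TNFAIP3 at 202643_s_at read 7.87, 7.97 and 8.13 with WT, 7.82, 7.61 and 7.31 with RR and 7.43, 7.59 and 7.53 with ND42. It fell by 0.41 (SE 0.12, adjusted p = 0.0221) with RR and by 0.48 (SE 0.12, adjusted p = 0.0165) with ND42, and all mutant arrays lay below all WT arrays. The RR call was lost without WT replicate 3 or RR replicate 2 or 3 (-0.43 to -0.28, adjusted p 0.0417 to 0.0862) and the ND42 call without WT replicate 3 or ND42 replicate 1 (-0.44 to -0.41, adjusted p 0.0687 to 0.072). At 202644_s_at the differences were -0.17 (adjusted p = 0.048) and -0.26 (adjusted p = 0.013), both under 1.25-fold. RBCK1 was called at 0 of its 3 probe sets in either comparison. At 221827_at it read 10.88, 10.90 and 10.96 with WT, 10.82, 10.80 and 10.70 with RR and 10.80, 10.70 and 10.66 with ND42, differences of -0.14 (95% interval -0.27 to -0.01) and -0.19 (-0.32 to -0.06).

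Between ND42 and RR 0 of the 20 probe sets were called by limma, with 1 at an unadjusted p under 0.05, where 0% of all probe sets were called. The difference was 0.08 for REL at 235242_at (95% interval -0.07 to 0.22), -0.16 for NFKB2 at 207535_s_at (-0.39 to 0.07) and -0.07 for TNFAIP3 at 202643_s_at (-0.33 to 0.20). RELA at 209878_s_at, the 1 with an unadjusted p under 0.05, differed by 0.15 (0.02 to 0.28, adjusted p = 0.348). These intervals bound how far the mutants could differ and do not show that they act alike.

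Genes activated by NF-kB went both ways, with more lower than higher with each mutant. Of 24 targets 6 were higher and 11 lower with RR, where 26% of all genes were called (14.1% higher and 11.9% lower), and 3 were higher and 11 lower with ND42, where 17.8% were called (10.3% and 7.5%). The medians were -0.29 and -0.31. The lower targets, each with its values for RR and ND42, were the neutrophil chemokines CXCL8 (-1.38 and -1.39), CXCL1 (-1.16 and -1.33), CXCL2 (-1.02 and -1.25) and CXCL3 (-1.42 and -1.58), the cytokines IL6 (-1.24 and -1.46), IL1A (-1.26 and -1.28), IL1B (-0.86 and -0.80) and LIF (-0.89 and -0.90), and IER3 (-1.03 and -0.99), PLAU (-0.73 and -0.86) and PTX3 (-1.31 and -1.44). Higher were SOD2, the mitochondrial superoxide dismutase (1.18 and 1.23), TNFAIP2 (0.56 and 0.55) and LTB (0.36 and 0.33), and with RR also CCL20, CCL2 and ICAM1. Both comparisons use the same WT arrays.

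**Figure D4:**
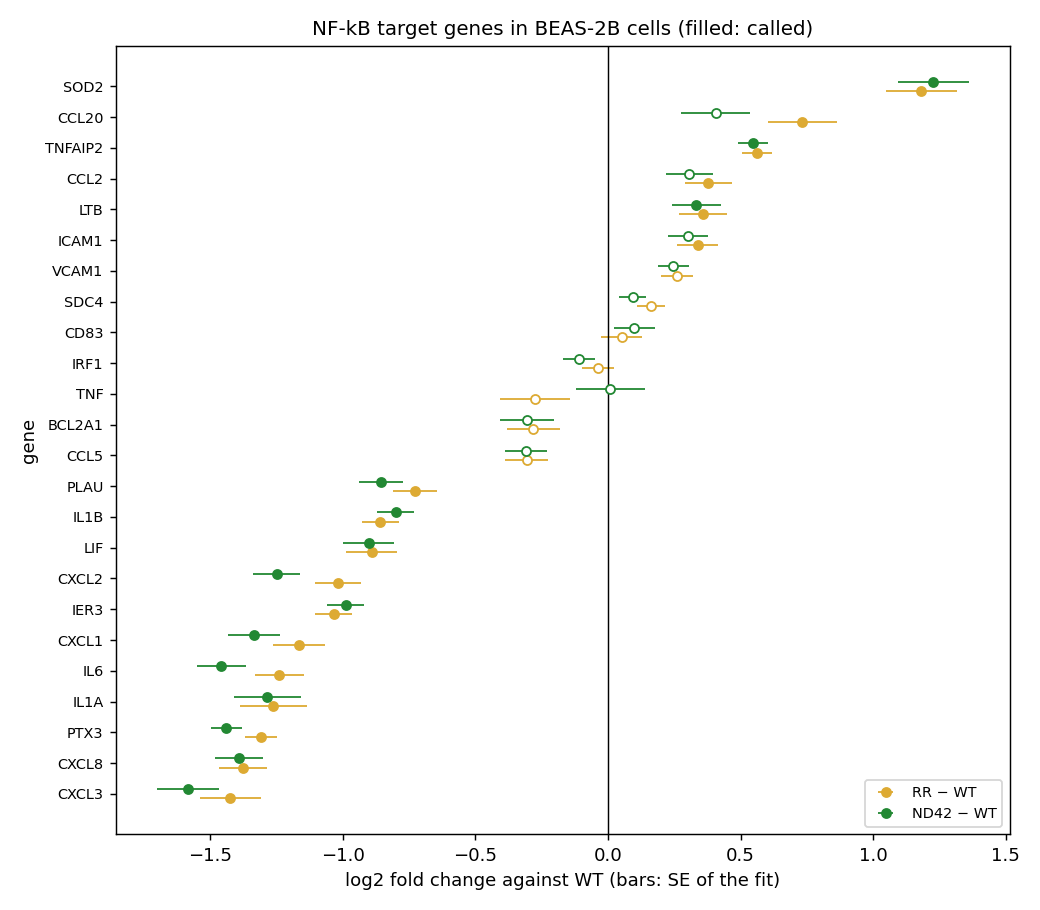
Log2 fold change against WT (horizontal axis, bars are the SE of the fit) of the 24 measured NF-kB target genes in BEAS-2B cells with RR (yellow) and ND42 (green), filled where called. The 11 lower genes lie between -1.58 and -0.73 and SOD2 above 1.1 in both comparisons.

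Upstream, MAP3K8 (TPL2), a kinase that p105 holds inactive, was higher by 1.71 (SE 0.13, adjusted p = 1.42e-05) with RR and 1.61 (SE 0.13, adjusted p = 2.32e-05) with ND42. The interleukin-1 receptor kinases IRAK1 (-0.98 and -1.01) and IRAK2 (-0.995 and -0.99) and the receptor TNFRSF12A (-1.24 and -1.24) fell. Of the other IkB proteins NFKBIB fell by 0.55 and 0.47 and NFKBIZ by 0.46 and 0.62. The ubiquitin conjugating enzyme UBE2N fell by 0.35 and 0.38, and OTULIN, which removes linear chains, rose by 0.35 (SE 0.05, adjusted p = 0.000982) with ND42. Of 5 leukocyte markers CD14 was higher with both mutants (0.37 and 0.51) and CD3E lower with RR (-0.35). Of 4 fibroblast markers COL1A1 (1.06 and 1.16) and COL1A2 (0.43 and 0.48) were higher with both and DCN lower with RR (-0.35), and of 5 epithelial markers CDH1 was higher (1.16 and 1.07). The mean of the fibroblast list ran from 7.48 to 7.57 on the WT arrays, 7.71 to 7.91 with RR and 7.84 to 7.91 with ND42, and that of the leukocyte list from 5.64 to 5.71, 5.64 to 5.76 and 5.76 to 5.82. The epithelial list ran from 7.62 to 7.71, 7.73 to 7.86 and 7.77 to 7.82, and the endothelial list from 5.602 to 5.67, 5.38 to 5.47 and 5.43 to 5.596, where 1 of 3 markers, PECAM1, was lower (-0.69 and -0.35). Of 4 alveolar type 2 markers SFTPC was lower with RR (-0.37). The part of these in the results was not tested. The cultures were of a cell line, and a change of a marker does not show that cells of that type were present. In samples of whole cultures a change in the share of cells and a change in RNA per cell cannot be told apart.

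Over the 12 A549 arrays the gene whose values ran most like those of RBCK1 was EEF2K (Pearson's r = 0.995), followed by ZNF706 and SKP2 (0.987 each), among 14809 genes. For NFKB2 they were VPS26A (0.981), ALDH4A1 (0.980) and KAT6A (0.973). NFKBIE ran with POLR2G (0.993), TNFAIP3 with USP54 (0.992) and NFKB1 with INTS14 (0.992). RELA ran with S100A16, FEN1 and YAP1 (0.991 each). There the offset of APE1 siRNA replicate 2 from the mean of replicates 1 and 3 was -1.42, and its part in the likeness was not tested. Over the 9 BEAS-2B arrays, among 12027 genes, REL ran with MAGEH1 (0.992), NFKB2 with HEXIM2 (0.998), NFKBIA with SHB (0.996) and TNFAIP3 with TLE1 (0.988). These arrays share their groups, so the correlations describe group differences and carry no test.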

How the data were processed

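RNA of 21 cultures in 7 groups of 3, biological replicates per the labels, was hybridised to HG-U133 Plus 2.0 arrays. The authors made the deposited log2 values with RMA (background correction, quantile normalization) in the affy package, with versions not given in the sources used here. Their 4 comparison tables hold limma log2 fold changes and p-values and were not used.

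Members and gene lists were chosen with earlier results of these data known. Of 54675 probe sets, 62 Affymetrix controls were left out, and 41091 carried 1 symbol, 1801 several and 11721 none, none of which was named. Symbols came from the platform annotation, updated through RefSeq. A linear model per cell line (4 groups, 12 arrays; 3 groups, 9 arrays) was fitted in limma 3.58.1 (R 4.3.3) with empirical Bayes. P-values were adjusted by Benjamini-Hochberg over all 54613 probe sets, and a call needed an adjusted p below 0.05 and 1.25-fold. Folds are of the log2 RMA scale. The code was tested on simulated data. All probe sets of each member are shown, other genes at the probe set with the highest mean, named where called, and the 3 most correlated genes per member. Arrays carry no read depth, and 3 per group limit the precision. Alternatives were the arrays in the fit, each array left out, replicate numbers as a block, renormalization, centring, a filter on a mean log2 of 6, trend and robust variances, and other thresholds.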

Additional observations from a re-analysis of the deposited data

How the results depend on the processing

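Of the counts of member probe sets called, 6 without TSA after APE1 siRNA became 1 with only the groups compared in the fit and 1 at an adjusted p under 0.01, and 4 with TSA became 2 after a further quantile normalization and 2 at an adjusted p under 0.01. The 10 called under TSA after APE1 siRNA became 5 with only the groups compared, 6 after that normalization and 6 at an adjusted p under 0.01, and the 6 under TSA after control siRNA became 10 when A549 APE1 siRNA replicate 2 was left out and the arrays were quantile normalized again. Leaving out 1 array in turn gave 1 to 7, 2 to 5, 5 to 9 and 6 to 10 for these comparisons in the order APE1 siRNA without and with TSA, TSA after control and APE1 siRNA, 5 to 8 for RR and 4 to 8 for ND42 against WT, and 0 for the interaction and for ND42 against RR. The lowest counts came without control replicate 1 or 2 (1, and 2 without control replicate 3 or APE1 siRNA replicate 1), TSA control replicate 1 or 2 (2), TSA APE1 siRNA replicate 3 (6) and ND42 replicate 1 (4). The cause was not tested. Log2 fold changes of single probe sets crossed the threshold 175 times, 128 of them losing a call, and none of the called ones changed sign.

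Replicate numbers did not pair the arrays: same-numbered arrays deviated together at r = -0.079 to 0.264 in A549 cells (above 0.1 in 2 of 18 pairs) and -0.033 to 0.201 in BEAS-2B cells (2 of 9). With the replicate number as a block 4, 3, 6 and 9 probe sets were called in the A549 comparisons in that order, 7 for RR and 7 for ND42. The calls lost with the block were those of TNFAIP3 at both probe sets after APE1 siRNA without TSA (adjusted p = 0.0904 and 0.0887) and of REL at 235242_at (APE1 siRNA with TSA), 206036_s_at and 228812_at (TSA after control and APE1 siRNA) and 239486_at (ND42). REL at 239486_at (TSA after control siRNA) and NFKB2 at 209636_at (ND42) gained one.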
